A study of Mus musculus with 8 samples.

Results

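Lung endothelial genes are described here as 34 transcripts that are known to mark the cells lining lung blood and lymph vessels. They were chosen by name, with earlier results of these data known, and they are 34 of 13854 genes tested. Each gene was represented by the probe set (the group of short probes that reads 1 transcript) with 1 gene symbol and the highest mean over all 8 arrays. Of the 34 genes, 23 are treated as pan-endothelial and 6 as markers of a capillary subtype (4 of general capillary cells and 2 of aerocytes). Another 4 are treated as markers of arteries and other large vessels, and 1, Lyve1, as a lymphatic marker. On all 8 arrays the chosen probe sets of all 34 lay at or above the array median, so none was lost to the filter on dim signals. The chosen probe sets of 3 genes, Car4, Egfl7 and Sox17, are of a design that can also read related transcripts, so their values are less certain.

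The lung holds one of the densest capillary beds of the body, and endothelial cells make up a large share of its cells. They keep their identity through VEGF, angiopoietin and BMP receptors and through transcription factors of the ETS and SOXF families, and they hold the vessel closed through junction proteins such as VE-cadherin and claudin-5. Lung capillaries contain a pair of specialised cell types: aerocytes, which are marked by Car4 and Ednrb and lie on the gas exchange surface, and general capillary cells, which are marked by Gpihbp1, Plvap and Aplnr and can renew the capillary.

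The mice were male outbred ICR animals, 5 to 6 weeks old per the labels of the samples (the series text gives only the upper age), and the tissue was lobe 1 of the right lung. Each received 1 instillation into the surgically exposed trachea under pentobarbital. The SWCNT groups received 0.5 mg of single-walled carbon nanotubes in 50 µl of 0.1% Pluronic F-68, and the PF68 groups received Pluronic F-68, a surfactant used as solvent, without tubes, so that all 4 groups share the surgery and the surfactant. Lungs were taken on day 1, which the submitters call acute, or day 7, which they call sub-chronic, and each group of 1 treatment on 1 day has 2 arrays. The submitters describe them as biological replicates and name no animals, so p-values measure the spread between these arrays only, which may be technical. With groups of 2, an exact permutation test of 1 gene cannot go below p = 0.333 (two-sided), and all tests below come from a limma fit across all genes. Values are read as log2 signals, although the log base is not stated in the sources, and ± after a difference is its standard error (SE). A gene is called higher or lower when its limma p-value, adjusted by the Benjamini-Hochberg method over all genes of a comparison, is under 0.05.

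All arrays held the same sorted values, so each difference is relative to a common distribution. The 3′ minus 5′ signal of the beta-actin control, which grows as RNA is shortened, was 2.01 to 2.04 in PF68 day 1, 1.31 to 1.36 in SWCNT day 1, 3.25 to 3.29 in PF68 day 7 and 2.94 to 2.99 in SWCNT day 7. The mean of 18 probe sets for bacterial and phage hybridization spikes differed between SWCNT and PF68 by 0.22 on day 1 and by -0.53 on day 7. Shifting the arrays to equal spikes moves the median difference of all genes from -0.02 to -0.24 on day 1 and from 0.02 to 0.55 on day 7, and every difference below is given on the deposited scale unless spike scaling is named. Muscle and adipose transcripts were high on the SWCNT day 1 arrays, and interferon-induced transcripts were high on the PF68 day 1 arrays. Of a skeletal muscle list 6 of 8 genes were higher there than in PF68 day 1, and the mean log2 level of the list was -1.21 to -0.92 in PF68 day 1, 3.21 to 3.32 in SWCNT day 1, -1.13 to -0.82 in PF68 day 7 and -1.08 to -1.05 in SWCNT day 7. Of a cardiac muscle list 4 of 6 were higher, with list means of 2.97 to 3.12, 4.53 to 4.59, 2.44 to 2.55 and 2.82 to 2.86 in the same order. Of an adipose list 4 of 5 were higher, with list means of 0.80 to 0.98, 3.06 to 3.15, 1.68 to 1.81 and 0.67 to 0.94 in the same order. Of 10 interferon-induced genes 10 were lower in SWCNT than in PF68 on day 1, with list means of 3.97 to 3.97, 0.91 to 1.03, 1.41 to 1.42 and 1.38 to 1.41. No level of 0 signal exists on this scale, so no marker can be called absent. Muscle and fat hold endothelial cells of their own, and the part of these lists and of RNA quality in the results below was not tested. In whole lobes, fewer endothelial cells and less RNA of a gene per cell cannot be told apart.

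**Figure D1:**
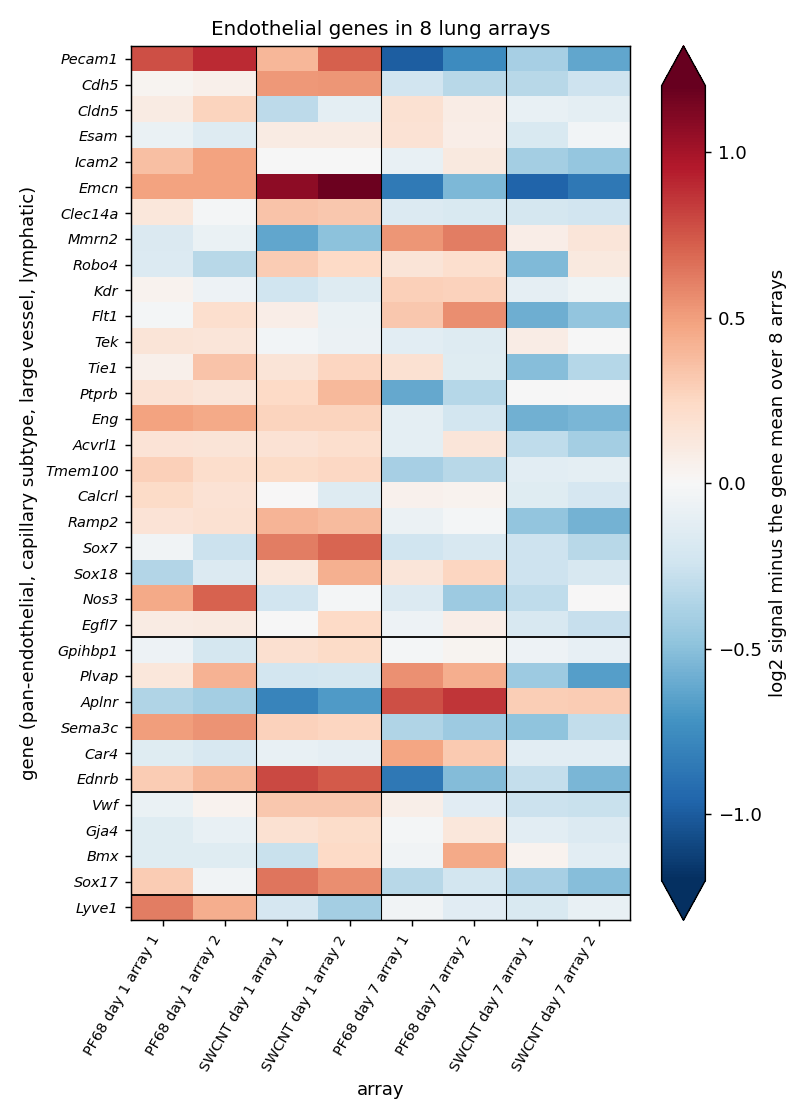
Log2 signal of each of the 34 genes on each of the 8 arrays, minus that gene's mean over the 8 arrays (colour), with genes in rows grouped as pan-endothelial, capillary subtype, large vessel and lymphatic. Emcn, Pecam1 and Ednrb were high on all 4 day 1 arrays and low on all 4 day 7 arrays, while Aplnr was high on day 7.

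The treatment comparison asked whether lungs that received SWCNT differed from lungs that received the surfactant alone on the same day. On day 1, 2 of 34 endothelial genes were called, where 2.17% of all genes were called: Sox7 was higher (background 0.931%) and Lyve1 was lower (1.23%) in SWCNT. On day 7, 2 of 34 were called, where 2.18% of all genes were called: Flt1 and Plvap were both lower in SWCNT, as were 0.780% of all genes. Counts this small are not read as a property of the list, and all 4 calls lie near the threshold. None of them was called when any 1 of the 8 arrays was left out, when same-numbered arrays were fitted as a replicate block, when no filter was set on dim signals or when the 2 groups were fitted alone. Each kept its direction in all 17 alternative settings tried for it.

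Sox7 encodes a SOXF transcription factor of endothelial development. Its log2 signal was 2.84 and 2.63 in PF68 day 1, 3.51 and 3.59 in SWCNT day 1, 2.65 and 2.70 in PF68 day 7 and 2.64 and 2.56 in SWCNT day 7. Both SWCNT arrays of day 1 lay above the other 6 arrays. The difference on day 1 was 0.81 ± 0.12 (1.75-fold, adjusted p = 0.0398, limma), against -0.07 ± 0.12 on day 7. The other SOXF genes had differences of 0.54 ± 0.15 (Sox18, adjusted p = 0.142) and 0.47 ± 0.15 (Sox17, adjusted p = 0.185) on day 1 and were not called. Sox18 read 2.91 and 3.09 in PF68 day 1, 3.38 and 3.68 in SWCNT day 1, 3.40 and 3.51 in PF68 day 7 and 3.01 and 3.06 in SWCNT day 7. Sox17, which marks arteries, read 3.89 and 3.54 in PF68 day 1, 4.22 and 4.14 in SWCNT day 1, 3.25 and 3.36 in PF68 day 7 and 3.18 and 3.06 in SWCNT day 7. With the chosen probe sets of all 3 SOXF genes, both SWCNT arrays lay above both PF68 arrays on day 1 and below both on day 7. Of all genes, 24.6% lay above on day 1 and 25.0% below on day 7. The other Sox17 probe set differed by 0.54 on day 1 and 0.46 on day 7, so the day 7 direction of Sox17 depends on the probe set.

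Lyve1 encodes a hyaluronan receptor of lymphatic vessels, which some macrophages also carry. Its signal was 5.22 and 5.04 in PF68 day 1, 4.40 and 4.19 in SWCNT day 1, 4.56 and 4.46 in PF68 day 7 and 4.42 and 4.51 in SWCNT day 7. Both PF68 arrays of day 1 were the highest of the 8, and the groups did not overlap on that day. Lyve1 was lower in SWCNT on day 1 by 0.83 log2 units (-0.83 ± 0.13, adjusted p = 0.0451, limma), against -0.04 ± 0.13 on day 7. The second Lyve1 probe set differed by -0.04 on day 1, so the call rests on 1 of 2 probe sets.

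Flt1 encodes VEGF receptor 1, which binds VEGF-A, VEGF-B and placental growth factor and limits VEGF signalling. It read 3.07 and 3.30 in PF68 day 1, 3.17 and 3.02 in SWCNT day 1, 3.43 and 3.65 in PF68 day 7 and 2.51 and 2.63 in SWCNT day 7. Both SWCNT arrays of day 7 were the lowest of the 8. The day 7 difference was -0.97 ± 0.15 (adjusted p = 0.0423, limma), so the PF68 level was 1.96-fold the SWCNT level, against -0.09 ± 0.15 on day 1. The 3 other Flt1 probe sets differed by -0.46, -0.46 and -0.71 on day 7. With spike scaling the chosen probe set differed by -0.44 and was not called (adjusted p = 0.0774, limma).

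Plvap encodes the protein of the diaphragms that span endothelial fenestrae and caveolae, and it is a marker of general capillary cells. Its values were 4.45 and 4.74 in PF68 day 1, 4.10 and 4.10 in SWCNT day 1, 4.87 and 4.76 in PF68 day 7 and 3.88 and 3.65 in SWCNT day 7. On both days the SWCNT arrays lay below the PF68 arrays. The difference was -1.05 ± 0.15 on day 7 (adjusted p = 0.0394, limma), which makes the PF68 level 2.06-fold the SWCNT level, and -0.49 ± 0.15 on day 1 (adjusted p = 0.165). With spike scaling it was -0.52 on day 7, where Plvap was still called.

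**Figure D2:**
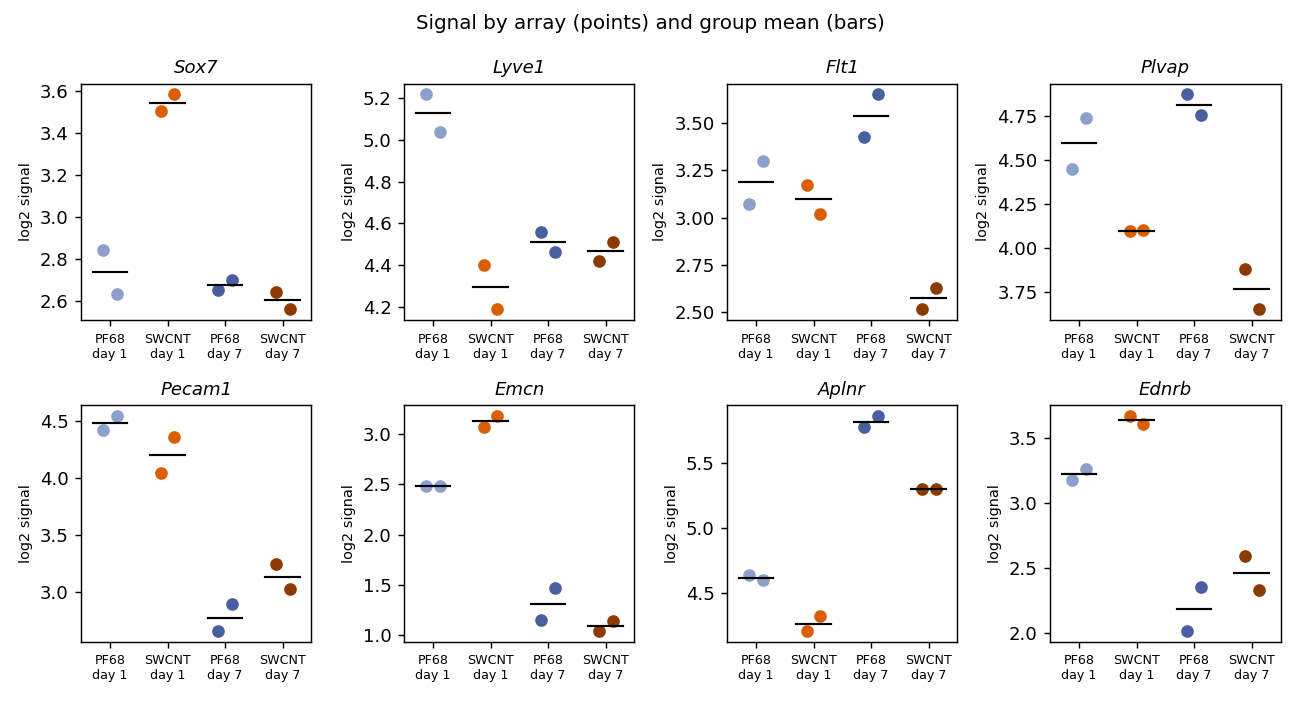
Log2 signal of 8 genes on each array (points) with the group mean (bar), for PF68 and SWCNT on day 1 and day 7. The upper panels hold the genes called between treatments, with SWCNT apart from PF68 on day 1 for Sox7 and Lyve1 and on day 7 for Flt1 and Plvap, and the lower panels hold genes whose largest differences were between the days.

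The sequence just upstream of the transcription start is printed for Flt1, called between treatments and matched in the RefSeq promoter table, and for 3 genes called between the days: Emcn, Ednrb and Car4. Of the 34 genes 16 were matched in that table, with 18 start sites. Each window holds 250 bases before the start site, read 5′ to 3′ on the gene's own strand (GRCm38.p6), and its capitals mark GGAAG, the core of ETS family sites, searched on both strands. Such a match was found in 13 of the 18 windows of endothelial genes and in 64.1% of all 32851 windows of this length, and it is a description of the letters and no evidence of binding. The core of hypoxia response elements, ACGTG, also searched on both strands, was found in 2 of 18 windows, none of them printed here, and in 16.6% of all. The printed windows hold only the first of these motifs, so none of their matches overlap with the second.
Flt1, chr5:147726012-147726261, minus strand, 3 matches: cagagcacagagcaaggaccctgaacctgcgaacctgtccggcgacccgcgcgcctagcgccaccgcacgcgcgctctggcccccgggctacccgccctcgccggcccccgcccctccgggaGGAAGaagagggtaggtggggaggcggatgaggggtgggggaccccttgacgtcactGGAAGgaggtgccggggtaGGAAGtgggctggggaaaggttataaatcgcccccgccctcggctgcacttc
Emcn, chr3:137340828-137341077, plus strand, 2 matches: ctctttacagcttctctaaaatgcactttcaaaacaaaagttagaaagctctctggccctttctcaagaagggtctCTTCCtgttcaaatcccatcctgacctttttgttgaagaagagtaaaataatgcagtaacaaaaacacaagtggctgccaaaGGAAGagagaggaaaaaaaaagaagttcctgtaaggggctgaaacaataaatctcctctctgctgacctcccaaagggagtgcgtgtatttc
Ednrb, chr14:103843702-103843951, minus strand, 1 match: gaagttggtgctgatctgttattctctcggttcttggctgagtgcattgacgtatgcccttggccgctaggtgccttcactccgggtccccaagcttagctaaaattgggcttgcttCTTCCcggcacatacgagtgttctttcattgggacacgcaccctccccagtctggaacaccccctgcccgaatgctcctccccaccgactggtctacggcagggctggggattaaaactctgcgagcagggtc
Car4, chr11:84957504-84957753, plus strand, 2 matches: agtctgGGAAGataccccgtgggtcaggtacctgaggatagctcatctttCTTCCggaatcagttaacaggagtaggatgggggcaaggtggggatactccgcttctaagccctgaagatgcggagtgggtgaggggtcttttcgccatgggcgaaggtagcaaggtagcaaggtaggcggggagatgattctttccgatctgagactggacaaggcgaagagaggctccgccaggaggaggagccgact

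The other pan-endothelial genes were not called between treatments on either day. Cdh5, which encodes VE-cadherin, the adhesion protein of endothelial junctions, read 4.73 and 4.76 in PF68 day 1, 5.21 and 5.23 in SWCNT day 1, 4.47 and 4.36 in PF68 day 7 and 4.36 and 4.45 in SWCNT day 7. Its SWCNT arrays lay above its PF68 arrays on day 1, with a difference of 0.47 ± 0.10 (adjusted p = 0.0918), and the groups overlapped on day 7, with a difference of -0.01 ± 0.10. Pecam1, the adhesion molecule CD31, differed by -0.28 ± 0.17 on day 1 and by 0.36 ± 0.17 on day 7. Emcn, endomucin, a sialoglycoprotein of capillary and venous endothelium, had a day 1 difference of 0.65 ± 0.14 (adjusted p = 0.0916). Nos3, the endothelial nitric oxide synthase, had -0.71 ± 0.18 (adjusted p = 0.127). Robo4, a receptor that stabilises vessels, read 1.42 and 1.26 in PF68 day 1, 1.89 and 1.83 in SWCNT day 1, 1.74 and 1.78 in PF68 day 7 and 1.05 and 1.70 in SWCNT day 7. Its differences were 0.52 ± 0.22 on day 1 and -0.39 ± 0.22 on day 7, and neither was called. The junction genes Cldn5 (claudin-5), Esam and Icam2 spanned 5.40 to 5.98, 4.77 to 5.12 and 4.26 to 5.20 over the 8 arrays, and their treatment differences lay between -0.45 and 0.21 with no call on either day.

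Among the growth factor receptors, the day 7 difference was -0.36 ± 0.10 for Kdr, VEGF receptor 2 (adjusted p = 0.118), -0.45 ± 0.17 for Tie1, 0.19 ± 0.10 for Tek, the angiopoietin receptor Tie2, and 0.48 ± 0.13 for Ptprb, the phosphatase that restrains Tie2. Kdr spanned 3.30 to 3.83 over the 8 arrays, Tek 4.02 to 4.33, and Tie1 2.64 to 3.49. For each of these genes the SWCNT and PF68 arrays did not overlap on day 7, and none was called. The SWCNT arrays lay lower for Kdr and Tie1, where 25.0% of all genes had such non-overlap. They lay higher for Tek and Ptprb, where 28.2% did. The BMP co-receptor Eng (endoglin) differed by -0.40 ± 0.10 on day 7, its partner Acvrl1 (ALK1) by -0.37 ± 0.13, and Tmem100, which lies downstream of ALK1, by 0.24 ± 0.10. Ramp2 and Calcrl form the adrenomedullin receptor, and on day 7 they differed by -0.48 ± 0.10 (adjusted p = 0.071) and -0.22 ± 0.11. The other passing Calcrl probe set differed by 0.82 on day 7, so the direction of Calcrl depends on the probe set. Egfl7, a secreted endothelial protein, differed by -0.25 ± 0.13, and its array values spanned 4.54 to 5.07. Calcrl spanned 5.96 to 6.40.

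Taken as a list, the endothelial genes had a median SWCNT minus PF68 difference of 0.02 on day 1 (range -0.83 to 0.81) and of -0.23 on day 7 (range -1.05 to 0.48), where the median over all genes was -0.02 and 0.02. On day 7, 27 of 34 differences were below 0 and 7 above, while 52.2% of all genes were above 0. Some lists of other cell types had day 7 differences below 0 too. Their list means differed by -0.94 (adipose), -0.28 (airway), -0.18 (mural) and -0.17 (alveolar type 1), against -0.20 for the pan-endothelial genes. Other lists lay near 0 or above it: -0.09 (skeletal muscle), -0.03 (leukocyte), -0.01 (interferon-induced), 0.03 (alveolar type 2) and 0.34 (cardiac muscle). Of 6 alveolar type 1 genes 5 were below 0, and Pdpn was called lower, while Sftpb (alveolar type 2) and Myl7 (cardiac muscle) were called higher. On that day both SWCNT arrays lay below both PF68 arrays for 24 of 34 endothelial genes, where 25.0% of all genes had such non-overlap in that direction, and above them for 4, where 28.2% did. On day 1 the corresponding counts were 13 lower, where 28.6% of all genes were, and 16 higher, where 24.6% were. In either direction 29 of 34 were apart on day 1 and 28 on day 7. The 34 genes reached the array median on all 8 arrays, while the genes tested needed this on only 2. The shares are therefore not of genes of like signal. The day 7 lean depends on the scale of the arrays: with spike scaling the median was 0.30, 32 of 34 differences were above 0 and the called genes were 12 higher and 1 lower, where 42.5% of all genes were called, although the endothelial median then stayed below the all-gene median of 0.55. It did not depend on 1 array, since leaving out any 1 of the 8 left 25 to 29 of 34 differences below 0.

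**Figure D3:**
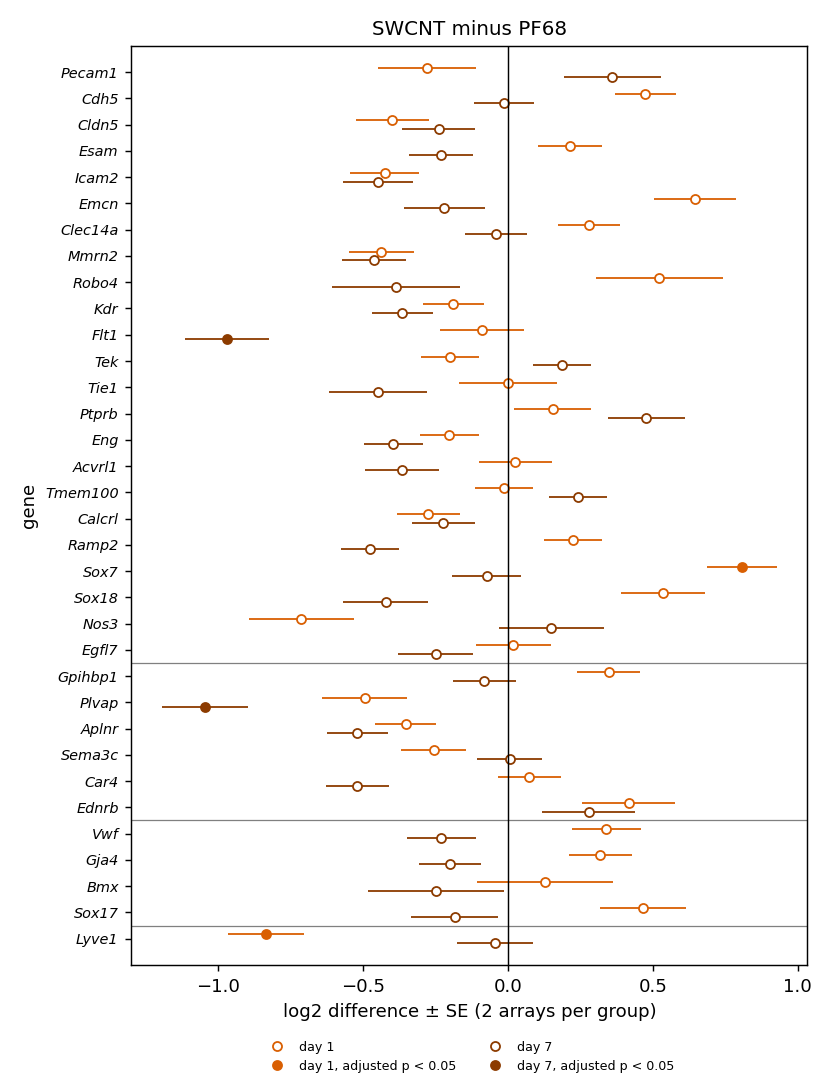
SWCNT minus PF68 log2 difference ± SE for each of the 34 genes on day 1 (orange) and day 7 (brown), with filled symbols for calls at an adjusted p under 0.05 and lines between gene classes. Sox7 and Lyve1 were called on day 1 and Flt1 and Plvap on day 7, and 27 of 34 day 7 points lie to the left of 0.

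The difference between the days was tested as an interaction term, the day 7 effect minus the day 1 effect. None of 34 endothelial genes was called, where 2.34% of all genes were called. The median of the list was -0.35 against 0.05 over all genes, and 25 of 34 differences were below 0, while 53.8% of all genes were above 0. The largest were Sox18 (-0.96 ± 0.21, adjusted p = 0.0771), Robo4 (-0.91 ± 0.31, adjusted p = 0.182), Sox7 (-0.88 ± 0.17, adjusted p = 0.0629) and Flt1 (-0.88 ± 0.21, adjusted p = 0.0906). In limma 18 of 34 had an unadjusted p under 0.05. The share of all genes under that unadjusted threshold was not counted, so this number is not read as a property of the list. With genes filtered on their mean signal, 2 were called (Ramp2 and Sox7, both below 0), and with spike scaling 14 were, all above 0, where 44.2% of all genes were called. For 13 genes the SWCNT arrays lay above PF68 on day 1 and below PF68 on day 7, and for 2 the reverse held. For 8 they lay below on both days. How many of all genes had each of these joint patterns was not counted, so they are not read as a property of the list.

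Capillary subtype genes were then set against the pan-endothelial genes. Since levels of different probe sets are not comparable, each gene was centred on its mean over the 8 arrays and the centred values were averaged over a class on each array, with no test of such a score. The 23 pan-endothelial genes averaged 0.15 and 0.17 in PF68 day 1, 0.15 and 0.22 in SWCNT day 1, -0.10 and -0.05 in PF68 day 7 and -0.29 and -0.25 in SWCNT day 7. The 6 capillary genes averaged 0.06 and 0.09 in PF68 day 1, 0.03 and 0.04 in SWCNT day 1, 0.09 and 0.11 in PF68 day 7 and -0.18 and -0.24 in SWCNT day 7. On day 7 both classes were lower in SWCNT than in PF68, by differences of -0.20 (pan-endothelial) and -0.31 (capillary), and the capillary minus pan difference was -0.11, against -0.07 on day 1. The arrays of the groups did not overlap in this capillary minus pan value on either day. With 1 replicate of a group left out, it ranged from -0.10 to -0.05 on day 1 and from -0.16 to -0.06 on day 7. With the mean of all passing probe sets per gene it was 0.01 on day 1 and -0.06 on day 7.

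The 2 capillary subtypes differed in direction on day 1. The 4 general capillary genes averaged 0.05 and 0.09 in PF68 day 1, -0.14 and -0.10 in SWCNT day 1, 0.24 and 0.22 in PF68 day 7 and -0.17 and -0.19 in SWCNT day 7. Minus the pan-endothelial mean, they differed between SWCNT and PF68 by -0.22 on day 1 and -0.21 on day 7. The 2 aerocyte genes averaged 0.08 and 0.10 in PF68 day 1, 0.35 and 0.31 in SWCNT day 1, -0.19 and -0.11 in PF68 day 7 and -0.21 and -0.33 in SWCNT day 7. Minus the pan-endothelial mean, they differed by 0.22 on day 1 and 0.08 on day 7, so the direction of the capillary class depends on which subtype is taken. Large vessel genes averaged -0.01 and -0.06 in PF68 day 1, 0.22 and 0.33 in SWCNT day 1, -0.08 and 0.06 in PF68 day 7 and -0.19 and -0.27 in SWCNT day 7, with a SWCNT minus PF68 difference of 0.31 on day 1 and -0.22 on day 7. On day 1 skeletal muscle and adipose transcripts were high on the same SWCNT arrays, and their part was not tested.

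**Figure D4:**
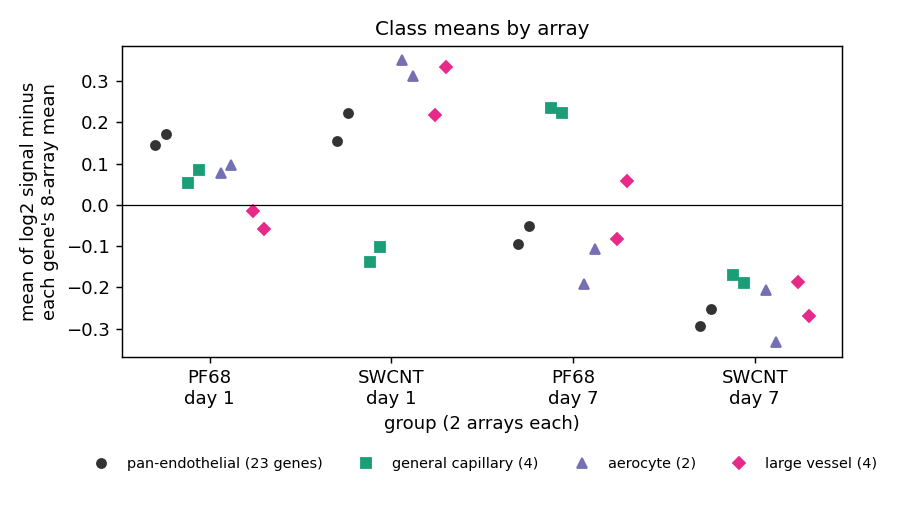
Mean over the genes of a class of the log2 signal minus each gene's 8-array mean, 1 point per array, for pan-endothelial (23), general capillary (4), aerocyte (2) and large vessel (4) genes in the 4 groups. General capillary points were lower in SWCNT than in PF68 on both days, and aerocyte points were higher in SWCNT on day 1.

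The class means hide genes that went different ways. Of the aerocyte genes, Car4, a membrane carbonic anhydrase, read 4.53 and 4.49 in PF68 day 1, 4.59 and 4.58 in SWCNT day 1, 5.16 and 4.99 in PF68 day 7 and 4.55 and 4.56 in SWCNT day 7. With this chosen probe set the PF68 arrays of day 7 stood above the other 6 arrays. The day 7 difference was -0.52 ± 0.11 (adjusted p = 0.0687, 95% interval -0.79 to -0.25), against 0.07 ± 0.11 on day 1. The other Car4 probe set differed by only -0.13 on day 7, and it was lower on day 7 than on day 1 in PF68 (-0.27). With spike scaling the chosen one differed by 0.01 on day 7, so the Car4 difference depends on probe set and scale. Ednrb, the endothelin receptor B, read 3.18 and 3.26 in PF68 day 1, 3.67 and 3.61 in SWCNT day 1, 2.01 and 2.35 in PF68 day 7 and 2.59 and 2.33 in SWCNT day 7. Its differences were 0.42 ± 0.16 on day 1 and 0.28 ± 0.16 on day 7, and neither was called. Of the general capillary genes, Gpihbp1, which anchors lipoprotein lipase to the capillary wall, read 4.81 and 4.66 in PF68 day 1, 5.06 and 5.11 in SWCNT day 1, 4.85 and 4.91 in PF68 day 7 and 4.81 and 4.78 in SWCNT day 7. Its differences of 0.35 ± 0.11 on day 1 and -0.08 ± 0.11 on day 7 were not called, and the 95% interval on day 7 ran from -0.35 to 0.19. Aplnr, the apelin receptor, differed by -0.35 ± 0.11 on day 1 and -0.52 ± 0.11 on day 7 (adjusted p = 0.0659). Sema3c, a secreted guidance protein, differed by -0.26 ± 0.11 and 0.01 ± 0.11. Of the large vessel genes, Vwf, the clotting glycoprotein of endothelial granules, differed by 0.34 ± 0.12 and -0.23 ± 0.12, the arterial connexin gene Gja4 by 0.32 ± 0.11 and -0.20 ± 0.11, and the arterial kinase gene Bmx by 0.13 ± 0.23 and -0.25 ± 0.23. Gja4 spanned 3.22 to 3.60 over the 8 arrays, and Bmx 0.02 to 0.74.

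The difference between days within a treatment was larger than the treatment difference for many endothelial genes. From day 1 to day 7, 12 of 34 were called in PF68 lungs, 3 higher and 9 lower, where 17.7% of all genes were called, 8.86% higher and 8.86% lower. In SWCNT lungs 14 of 34 were called, 2 higher and 12 lower, where 16.3% of all genes were called, 9.59% higher and 6.70% lower. The list median was -0.15 in PF68, against 0.04 over all genes, and -0.39 in SWCNT, against 0.09. Both treatments called 7 of these genes, and the share of all genes called in both was not counted. These contrasts share no array, but the day 1 and day 7 arrays of both treatments also differ in RNA quality: the beta-actin 3′ minus 5′ signal was higher on day 7 by 1.25 in PF68 and 1.63 in SWCNT, and its part in the calls was not tested. Other lists changed in the same comparisons: in PF68, 10 of 10 interferon-induced genes (median -2.62) and 4 of 6 cardiac muscle genes (median -0.60) were called lower on day 7. In SWCNT, 8 of 8 skeletal muscle, 6 of 6 cardiac muscle and 5 of 5 adipose genes were called lower. Their part was not tested either. With the PF68 arrays fitted alone, or the SWCNT arrays alone, 0 endothelial genes were called, as were 0 and 7 of all genes. Leaving out PF68 day 1 replicate 1 or 2 left 0 PF68 calls, and PF68 day 7 replicate 1 left 7. Leaving out SWCNT day 1 replicate 1 or 2 left 4 or 3 SWCNT calls, and either SWCNT day 7 replicate left 1. With spike scaling the PF68 calls were 1 higher and 25 lower, where 1.24% of all genes were higher and 41.5% lower. The SWCNT calls were then 2 higher and 10 lower, where 15.9% were higher and 4.48% lower.

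Pecam1, Emcn and Ednrb had the largest falls. Pecam1 read 4.42 and 4.54 in PF68 day 1, 4.05 and 4.36 in SWCNT day 1, 2.66 and 2.89 in PF68 day 7 and 3.25 and 3.02 in SWCNT day 7. All 4 day 1 arrays lay above all 4 day 7 arrays, and Pecam1 fell by 1.71 log2 units in PF68 (-1.71 ± 0.17, adjusted p = 0.00851, limma) and by 1.07 in SWCNT (-1.07 ± 0.17, adjusted p = 0.0146). Emcn read 2.48 and 2.48 in PF68 day 1, 3.07 and 3.18 in SWCNT day 1, 1.15 and 1.47 in PF68 day 7 and 1.04 and 1.14 in SWCNT day 7. It fell by 1.17 in PF68 (-1.17 ± 0.14, adjusted p = 0.00971) and by 2.04 in SWCNT (-2.04 ± 0.14, adjusted p = 0.00414), the largest difference of any endothelial gene in these 5 comparisons. Ednrb fell by 1.04 in PF68 (-1.04 ± 0.16) and by 1.18 in SWCNT (-1.18 ± 0.16), with all 4 day 1 arrays above all 4 day 7 arrays. The 2 other Ednrb probe sets differed by -1.50 and -0.72 in PF68 and by -1.20 and -0.14 in SWCNT.

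Sema3c and Eng fell in both treatments as well. Sema3c read 5.82 and 5.86 in PF68 day 1, 5.60 and 5.58 in SWCNT day 1, 4.96 and 4.89 in PF68 day 7 and 4.84 and 5.02 in SWCNT day 7. Its differences were -0.92 ± 0.11 in PF68 and -0.65 ± 0.11 in SWCNT, with all day 7 arrays below all day 1 arrays. Eng read 5.06 and 5.04 in PF68 day 1, 4.85 and 4.85 in SWCNT day 1, 4.47 and 4.36 in PF68 day 7 and 4.01 and 4.03 in SWCNT day 7. Its differences were -0.64 ± 0.10 and -0.83 ± 0.10. For Eng, too, all 4 day 7 arrays lay below all 4 day 1 arrays.

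Aplnr and Mmrn2 rose in both treatments. Aplnr read 4.64 and 4.60 in PF68 day 1, 4.21 and 4.32 in SWCNT day 1, 5.78 and 5.86 in PF68 day 7 and 5.30 and 5.30 in SWCNT day 7. It was higher on day 7 by 1.20 ± 0.11 in PF68 (adjusted p = 0.00753, limma) and by 1.03 ± 0.11 in SWCNT (adjusted p = 0.007), while its second probe set differed by 0.28 and -0.18. Mmrn2, a matrix protein that binds the surface lectin Clec14a, read 2.54 and 2.64 in PF68 day 1, 2.09 and 2.22 in SWCNT day 1, 3.25 and 3.33 in PF68 day 7 and 2.79 and 2.86 in SWCNT day 7. Its rises were 0.70 ± 0.11 and 0.67 ± 0.11, and of its 3 other probe sets none in PF68 and 1 in SWCNT had the opposite sign. The third gene that rose in PF68 was Car4, by 0.57 ± 0.11. Its other probe set differed by -0.27 there, and with spike scaling the chosen one differed by -0.03, so its direction depends on both.

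In PF68 lungs, Ptprb, Tmem100, Nos3 and Lyve1 were also called lower on day 7, and they were not called in SWCNT. Ptprb read 5.20 and 5.17 in PF68 day 1, 5.27 and 5.42 in SWCNT day 1, 4.41 and 4.68 in PF68 day 7 and 5.02 and 5.03 in SWCNT day 7. Tmem100 read 4.85 and 4.78 in PF68 day 1, 4.80 and 4.82 in SWCNT day 1, 4.17 and 4.24 in PF68 day 7 and 4.45 and 4.46 in SWCNT day 7. Nos3 read 1.63 and 1.89 in PF68 day 1, 0.95 and 1.15 in SWCNT day 1, 1.02 and 0.74 in PF68 day 7 and 0.88 and 1.18 in SWCNT day 7. In each of these 3 the PF68 day 1 arrays lay above the PF68 day 7 arrays, with PF68 differences of -0.64 ± 0.13, -0.61 ± 0.10 and -0.88 ± 0.18 in that order, and Lyve1 differed by -0.62 ± 0.13. The interaction term, which tests whether the SWCNT and PF68 time differences are unequal, did not call these genes.

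In SWCNT lungs, Cdh5, Clec14a, Acvrl1, Ramp2, Sox7, Vwf and Sox17 were called lower on day 7 than on day 1 and were not called in PF68. Clec14a, a surface lectin of vessels, read 5.21 and 5.05 in PF68 day 1, 5.42 and 5.41 in SWCNT day 1, 4.91 and 4.89 in PF68 day 7 and 4.87 and 4.85 in SWCNT day 7. Acvrl1 read 3.88 and 3.88 in PF68 day 1, 3.90 and 3.92 in SWCNT day 1, 3.60 and 3.87 in PF68 day 7 and 3.42 and 3.31 in SWCNT day 7. Ramp2 read 6.27 and 6.29 in PF68 day 1, 6.52 and 6.49 in SWCNT day 1, 6.04 and 6.09 in PF68 day 7 and 5.63 and 5.54 in SWCNT day 7. The SWCNT day 7 arrays were the lowest of the 8 for Acvrl1 and Ramp2, and both SWCNT groups were apart for all 3. Vwf read 4.92 and 5.04 in PF68 day 1, 5.32 and 5.32 in SWCNT day 1, 5.07 and 4.86 in PF68 day 7 and 4.74 and 4.73 in SWCNT day 7. The SWCNT differences were -0.81 ± 0.10 for Cdh5, -0.55 ± 0.11 for Clec14a, -0.54 ± 0.13 for Acvrl1 and -0.92 ± 0.10 for Ramp2. They were -0.94 ± 0.12 for Sox7, -0.59 ± 0.12 for Vwf and -1.06 ± 0.15 for Sox17. With the mean of a gene's passing probe sets, Sox17 (-1.15) and Acvrl1 (-0.71) were called lower in PF68 too, so for both the absence of a PF68 call depends on the probe set. With the chosen probe sets the PF68 differences of these 7 genes ranged from -0.41 (Sox17) to -0.02 (Vwf), and no interaction was called, so a difference between the treatments in time course was not shown.

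**Figure D5:**
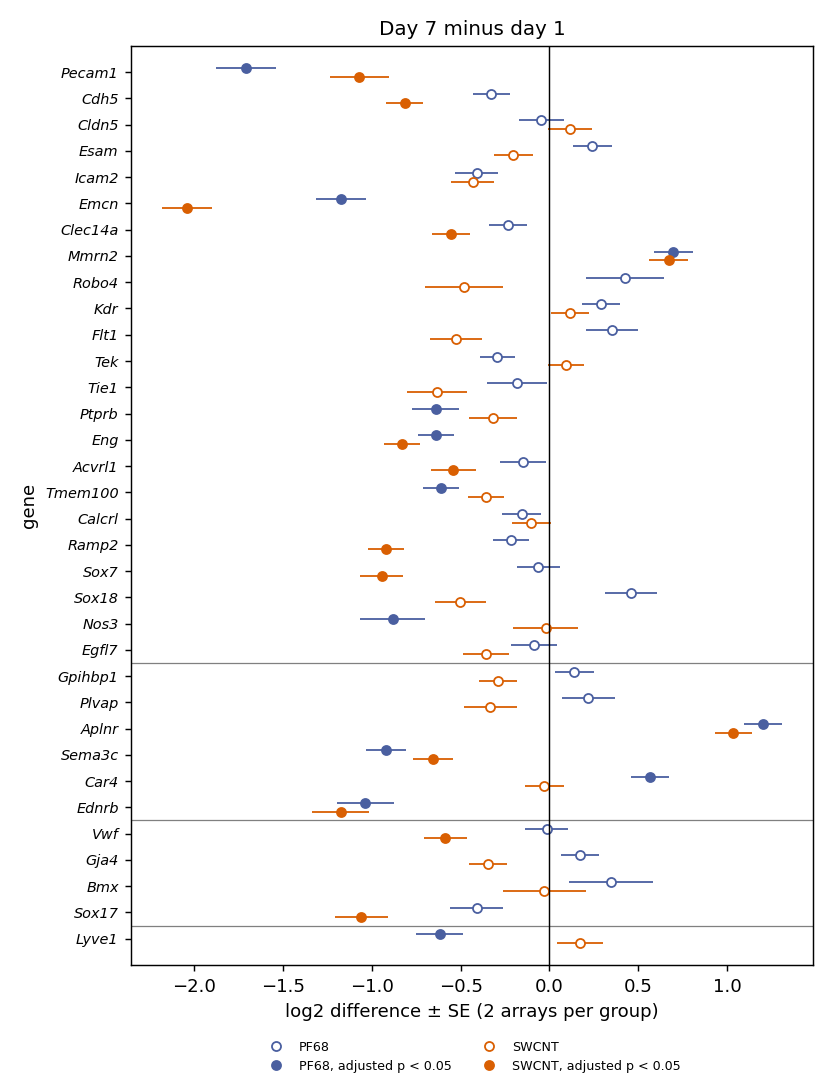
Day 7 minus day 1 log2 difference ± SE for each of the 34 genes in PF68 (blue) and SWCNT (orange) lungs, with filled symbols for calls at an adjusted p under 0.05. Pecam1, Emcn, Ednrb, Sema3c and Eng were called lower and Aplnr and Mmrn2 higher in both treatments.

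Probe sets of the same gene differed more in the time comparisons than in the treatment comparisons. Over the 16 endothelial genes with more than 1 passing probe set (39 in all), the median range between a gene's probe sets was 0.38 on day 1 and 0.36 on day 7 for SWCNT minus PF68, and 0.67 in PF68 and 0.78 in SWCNT for day 7 minus day 1. Calcrl had the widest range in PF68: its chosen probe set differed by -0.15 and another by -1.89. Sox17 differed by -0.41 in the chosen and -1.89 in its other probe set, and Acvrl1 by -0.15 and -1.28. Probe sets of a gene disagreed in sign for 5 genes on day 1, 6 on day 7, 3 in PF68 and 4 in SWCNT. This spread between probe sets was not compared with RNA quality by a test.

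Other vascular genes give the setting of these values. Of 16 vascular ligand genes none was called between treatments on either day, with medians of 0.13 on day 1 and 0.00 on day 7. Vegfa, the main ligand of the VEGF receptors, differed by 0.06 on day 1 and -0.38 on day 7. Of 18 other endothelial receptors and regulators none was called on either day, with medians of 0.01 and -0.19, and of 6 other capillary genes none was, with medians of 0.15 and -0.19. Of 5 tested genes of endothelial activation, Lrg1, a glycoprotein that acute inflammation also induces in other cells, was called higher on both days, by 0.72 ± 0.10 and 1.78 ± 0.10. The adhesion genes Icam1, Vcam1 and Selp were not called, and Sele did not pass the filter. Of 8 mural cell genes, which mark the pericytes around the endothelium, Cox4i2 was higher by 1.30 ± 0.14 on day 1 and lower by 1.21 on day 7 (-1.21 ± 0.14).

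Between the days, Edn1, the ligand of Ednrb, fell by 2.51 log2 units in PF68 (-2.51 ± 0.12, adjusted p = 0.00306, limma) and by 2.50 in SWCNT (-2.50 ± 0.12), so ligand and receptor were both lower on day 7. Vegfb, the other ligand called in PF68, fell by 1.03 there and by 1.33 in SWCNT. In SWCNT, Pdgfb (-0.98) and Vegfd (-0.81) were also lower, and Angpt2 (0.92) and Dll4 (0.84) were higher. In all 6 of 16 ligands were called in SWCNT and 2 in PF68, where 16.3% and 17.7% of all genes were called, and the counts below have the same background. Klf4 and Smad6, a pair of regulators that shear flow and BMP signals induce in endothelium, fell by 1.06 and 1.06 in PF68 and by 1.02 and 0.94 in SWCNT. Of the 18 receptors and regulators, 5 were called lower and 1 higher in PF68 and 6 lower in SWCNT, among them S1pr1 (-0.95 ± 0.11 in PF68 and -2.00 ± 0.11 in SWCNT), the sphingosine 1-phosphate receptor that keeps the barrier closed. Nrp1 (-0.69 and -0.50) and Thbd (-0.56 and -0.62) also fell in both, Notch4 (0.76) rose in PF68 and Ephb4 (-0.73) fell in SWCNT. Of the other capillary genes, 2 fell and 1 rose in PF68 and 3 fell in SWCNT, with Fibin at -0.87 and -0.93 and Cd93 at -0.46 and -0.61 in that order, Chst1 at 0.82 in PF68 and Tbx2 at -0.997 in SWCNT.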

How the data were processed

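Lung RNA was measured on 8 single-colour Affymetrix mouse arrays, 2 for each of 4 groups. The deposited values table holds log2 signals; the submitters' processing notes name RMA, with its version not given in the sources used here, and the log base and any offset were read from the values (the median of each array is -0.628). RMA sets all arrays to 1 distribution, so a shift common to most genes is removed from the measurements. Of 45101 probe sets, 34945 had 1 gene symbol in the platform annotation and were used; 64 control, 8 incomplete, 932 several-symbol and 9160 unnamed probe sets were left out. The probe set with the highest mean stood for a gene, and 13854 genes were kept that reached the median signal of the array in 2 or more of 8. limma 3.58.1 (R 4.3.3) fitted 4 group means and 5 contrasts (lmFit, eBayes) with Benjamini-Hochberg adjustment over all these genes and a threshold of 0.05, with 4 residual degrees of freedom and a prior of 1.81. The number of arrays limits the precision. The code was tested on simulated data. Array values were named by rule: genes called in any contrast, the 4 largest differences of each, and Pecam1, Cdh5, Car4, Ednrb, Gpihbp1, Plvap and Aplnr; other lists by their called genes, at most 6 a list and contrast. The members and lists were chosen with earlier results of these data known. Alternatives were a replicate block, no filter, a filter on the mean, the mean of a gene's probe sets, spike scaling, cyclic loess, a trended robust prior, array weights, fitting only the compared groups, either capillary subtype alone and leaving out each array. Same-numbered arrays were checked for pairing and not treated as pairs.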

Additional observations from a re-analysis of the deposited data

Results flagged for a closer look

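None of the 34 endothelial genes had a SWCNT effect that differed between day 1 and day 7 by the interaction test in limma. Of 53 related vascular genes 5 did, where 2.34% of all genes did. These lists were chosen with earlier results of these data known, so the count is not read as a property of them. With a replicate block or without a filter 1 of these 5 (Cox4i2) was still called, and without 1 array 0 to 1 (Cox4i2) were. With the mean of probe sets 2 of the 5 (Lrg1 and Cox4i2) were called. Spike scaling also left these 2 of the 5, with 26 of 53 called in all, where 44.2% of all genes were called. Cox4i2, a mural cell gene, had an interaction of -2.51 ± 0.19 (adjusted p = 0.0099, limma), from 1.30 on day 1 to -1.21 on day 7. Notch3, the Notch receptor of pericytes and smooth muscle, had -0.91 ± 0.15 (adjusted p = 0.0489), from 0.54 to -0.37. The other 6 of the 8 mural cell genes were not called. The interactions of all 8 had a median of -0.13 and a range of -2.51 to 0.39, with 6 below 0 and 2 above. Pdgfb, the endothelial growth factor that recruits pericytes, had -1.03 ± 0.17 (adjusted p = 0.0469), from 0.52 to -0.51. S1pr1 had -1.05 ± 0.16 (adjusted p = 0.0417), from 0.66 to -0.39. Lrg1 had 1.06 ± 0.15 (adjusted p = 0.0366), from 0.72 to 1.78. From day 1 to day 7 Lrg1 fell in PF68 (-1.18 ± 0.10, adjusted p = 0.00753, limma) and differed by -0.11 in SWCNT. The larger day 7 difference thus went with a lower PF68 level, not a higher SWCNT level. On the day 1 SWCNT arrays skeletal muscle and adipose transcripts were also high, and their part in these differences was not tested.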

How the results depend on the processing

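Over 17 alternative settings the called endothelial genes kept their direction, except Car4 between the days in PF68 (-0.0298 with spike scaling). On day 1 (2 called), the count was 0 with a replicate block, without a filter, with the 2 groups fitted alone and without any 1 array (0 to 0), 1 with the mean of probe sets (Cdh5), 4 with spike scaling and 19 with a trended robust prior. On day 7 (2 called) it was 0 with a replicate block, without a filter, with the mean of probe sets, with array weights, alone and without any 1 array (0 to 0), 5 with the mean filter, 13 with spike scaling and 15 with a trended robust prior. For the interaction (0 called) it was 2, 14 and 16 under those last 3 settings. In PF68 (12 called) it was 26 with spike scaling, 22 with a trended robust prior, 0 alone and 0 to 12 without 1 array. In SWCNT (14 called) it was 24 with a trended robust prior, 0 alone and 1 to 14 without 1 array. Of all genes, 5.32% were called on day 1 with spike scaling and 9.05% with a trended robust prior. With the mean filter, spike scaling and a trended robust prior the shares were 5.82%, 42.5% and 11.7% on day 7. For the interaction they were 4.81%, 44.2% and 9.98% in that order. In PF68 42.8% were called with spike scaling and 25.8% with a trended robust prior, and in SWCNT 24.6% with the latter. The cause of the changes between settings was not tested.

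Capillary minus pan-endothelial on day 1 was 0.0101 with the mean of probe sets, 0.22 with aerocyte genes only and -0.22 with general capillary genes only. On day 7 it was -0.0606, 0.0801 and -0.21 in that order, and -0.16 to -0.0646 without 1 array. Its difference between days was 0.0088 with general capillary genes only and -0.0879 to 0.0089 without 1 array, and with aerocyte genes only it was -0.0034 in PF68 and -0.14 in SWCNT between the days.

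Counts over all genes also moved. Without a filter or with the mean filter the number of genes tested differed too. The share called without a filter was 0.676% on day 1, 0.132% on day 7, 0.275% for the interaction, 7.73% in PF68 and 7.24% in SWCNT. On day 1 (300) they were 102 with the replicate block, 123 without a filter, 193 with the mean of probe sets, 737 with spike scaling, 1254 with a trended robust prior, 57 alone and 30 to 189 without 1 array. On day 7 (302) they were 15, 24, 97, 5893, 1617, 0 and 0 to 18 in that order, 688 with the mean filter and 102 with array weights. For the interaction (324) they were 30, 50, 157, 6127 and 1382, 568 with the mean filter and 3 to 74 without 1 array. In PF68 (2455) they were 1407 without a filter, 1455 with the mean of probe sets, 5928 with spike scaling, 0 alone and 0 to 1841 without 1 array, and in SWCNT (2257) 1317, 1384, 3411 with a trended robust prior, 7 alone and 91 to 2319.

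Replicate numbers did not pair the arrays: over 6 pairs of groups, deviations of same-numbered arrays correlated at -0.00605 to 0.0114. With the replicate block the endothelial counts were 0, 0, 0, 12 and 12 for day 1, day 7, the interaction, PF68 and SWCNT.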
